A study of Mus musculus with 4 samples.

Results

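AP-1 is a family of dimeric transcription factors, and its subunits were read here from the RNA of Beko cells in which Notch signaling had been blocked or allowed to return. The members are 10 genes taken by symbol from a table of 24391 genes: the Fos family (Fos, Fosb, Fosl1, Fosl2), the Jun family (Jun, Junb, Jund), the Batf proteins (Batf, Batf3) and Atf3. All 10 symbols are in the table, and 7 passed the filter on low counts and were tested. Beko is a single mouse progenitor T-cell line in which Notch signaling is constitutively active. The GSI group consists of 2 RNA-Seq libraries of Beko cells treated for 48 h with the γ-secretase inhibitor DAPT, which prevents the cleavage that releases the active Notch intracellular domain. The washout group consists of 2 libraries of cells that received the same 48 h of inhibitor, were washed and were then cultured for another 24 h without it. Within these 48 h the inhibitor was washed off and renewed once. Both groups therefore share the cell line and the inhibitor. Washed cells had 1 more wash and a longer culture, and libraries of cells handled alike without inhibitor were not analysed here, so that the return of Notch activity and the handling cannot be told apart. The labels do not say whether replicates came from separate cultures, so the p-values measure the spread between these libraries, which may be technical.

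AP-1 proteins bind DNA as dimers through a basic leucine zipper (bZIP). Jun proteins can pair with each other, whereas Fos proteins need a Jun partner, and Batf proteins pair with Jun proteins but lack the transactivation domain that Fos carries. Fos, Fosb, Jun, Junb and Atf3 are classical immediate early genes, whose short-lived mRNAs appear within minutes of growth factor, antigen receptor or stress signaling through MAP kinases and the serum response factor. In T cells, AP-1 acts together with NFAT at cytokine genes, and Batf-Jun dimers act together with IRF4.

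The libraries held between 13716199 and 36364200 counted reads, and replicate 1 was the deeper library in both groups. Levels are given in CPM, the counts scaled to a common total by library size and TMM factor, and 3 counts correspond to between 0.0881 and 0.223 CPM. A gene was called at an adjusted p-value under 0.05 in the quasi-likelihood test of edgeR, with Benjamini-Hochberg adjustment over all tested genes, together with a log2 fold change above 1 or below -1. All 10 T-cell progenitor markers were tested, and their summed CPM was between 4999 and 5489 in the libraries, with Rag1 as the largest part at 1764 to 2766 CPM. Single markers went in opposite directions: Gata3 was called lower at a log2 fold change of -1.67 and Ptcra higher at 2.37, while Tcf7 was at -0.87 and Bcl11b at -0.72. The summed CPM of 6 B cell markers did not exceed 0.960, but 3 of them were listed at 0 in every library, so their level is unknown. Notch target genes were called higher upon washout in 7 of 8 cases, against 7.74% of all tested genes. Hey1 was at the top by 3.47 on the log2 scale, while the log2 fold change of Notch3 was 0.14. Over all tested genes the median log2 fold change was -0.01.

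The promoters of Fos, Jun and Batf are shown first, since these genes fell most among the members upon washout. The sequences are the 250 bases before the annotated start in RefSeq on GRCm38.p6, which is a later build than the mm9 of the counts, and they are written 5′ to 3′ along the strand of the gene. Capitals mark a TATA box in Fos (TATAAA), a variant of the cyclic AMP response element and an RBPJ motif in Jun (TGACATCA and TGGGAA), and an RBPJ motif in Batf, where it lies on the other strand and reads TTCCCA. The Fos window is chr12:85473640-85473889 on the plus strand, the Jun window is chr4:95052223-95052472 on the minus strand, and the Batf window is chr12:85686470-85686719 on the plus strand.
Fos: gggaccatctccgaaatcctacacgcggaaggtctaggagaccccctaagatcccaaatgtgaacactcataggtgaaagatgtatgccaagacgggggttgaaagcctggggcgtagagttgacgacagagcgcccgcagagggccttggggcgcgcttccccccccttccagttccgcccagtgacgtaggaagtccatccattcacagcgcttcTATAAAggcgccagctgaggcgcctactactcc
Jun: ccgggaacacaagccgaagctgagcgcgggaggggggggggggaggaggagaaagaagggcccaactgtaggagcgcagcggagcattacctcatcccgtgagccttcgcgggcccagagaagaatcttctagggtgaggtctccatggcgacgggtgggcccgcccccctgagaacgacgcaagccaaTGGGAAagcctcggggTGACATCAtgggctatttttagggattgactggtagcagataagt
Batf: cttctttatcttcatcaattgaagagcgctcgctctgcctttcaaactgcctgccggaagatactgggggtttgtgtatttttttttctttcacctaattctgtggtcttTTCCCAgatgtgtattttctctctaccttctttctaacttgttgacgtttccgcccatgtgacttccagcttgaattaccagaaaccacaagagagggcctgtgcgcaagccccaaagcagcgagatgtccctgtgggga

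Promoter sequences were at hand for 9 of the 10 members, and motifs were searched on both strands of these windows. The pattern TGANTCA, with any base at N, covers the AP-1 site but is wider than it. This pattern was in 0 of the 9 windows and is in 6.75% of the 32851 promoters in the RefSeq set. The cyclic AMP response element (TGACGTCA) was likewise in 0 of 9, against 1.55% of all promoters, and the CArG box, which the serum response factor binds, was in 0 of 9, against 1.47%. Allowing any base at the fifth position (TGACNTCA) returned Jun alone, with a match 45 to 38 bases before the start, against 7.49% of all promoters. This wider pattern, which includes TGACGTCA, was added after the first searches. The RBPJ motif TGGGAA was in the windows of Jun, Jund and Batf, against 21.6% of all promoters, and TATAAA was in that of Fos, 33 to 28 bases before the start, against 12.4%. The motif of SP factors (GGGCGG) was the most frequent, in 7 of the 9 windows (Fos, Fosb, Fosl2, Jun, Batf, Batf3 and Atf3), against 32.7% of all promoters. The GC content of these 7 windows ran from 46.4% for Batf to 76% for Batf3, against a median of 52.4% over all promoters. Of the 7, Batf alone was below that median, and the shares were not matched for GC content. The NF-Y motif (CCAAT) was in those of Jun and Junb, against 33.8%. A match is a description of letters in a short window, and enhancers were not searched. Near matches, such as tgacgtag in the Fos window, were not counted, and sites more than 250 bases before the start were not searched. An absent match therefore does not show that a gene lacks the site.

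Upon washout, transcripts of most AP-1 subunits that could be tested were fewer. Fos, Jun, Junb, Jund, Batf and Fosl2 were called lower, with log2 fold changes from -3.89 to -1.59, and Fosl1 was not called. This makes 6 of the 7 members tested, where 11.7% of all tested genes were called lower and 7.74% higher. By the same test 0 members were called higher, and none of the 7 had a log2 fold change above 0, with DESeq2 giving 0 as well. Both washout libraries lay below both GSI libraries for each of the 7, which holds for 39.1% of all tested genes. In bulk RNA, fewer cells with a transcript and less of it in each cell cannot be told apart.

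**Figure D1:**
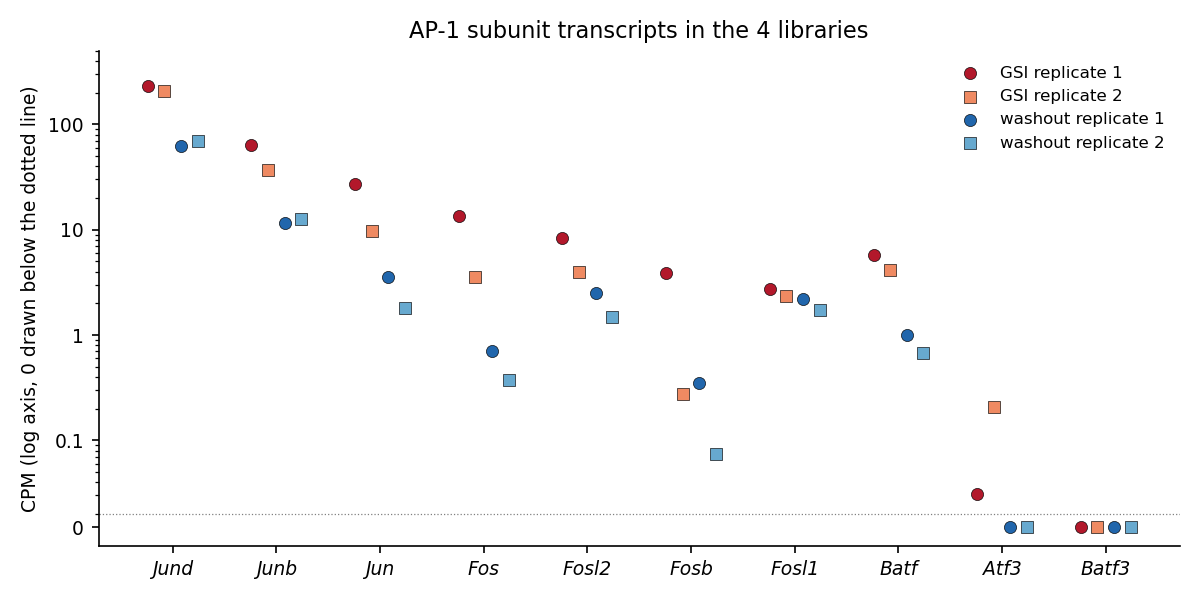
Transcript level of the 10 AP-1 subunits in each of the 4 libraries, in CPM on a log axis, with libraries at 0 counts drawn below the dotted line. For Jund, Junb, Jun, Fos, Fosl2, Fosl1 and Batf both GSI points lie above both washout points, whereas the points of Fosb overlap between the groups.

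The Jun family holds the obligate partners of Fos and Batf proteins. Jun, the founding member and a strong activator, had 27.3 and 9.66 CPM in GSI replicates 1 and 2 and 3.58 and 1.79 CPM in washout replicates 1 and 2. The groups were apart, although the GSI libraries differed from each other by 2.82-fold. Jun had a log2 fold change of -2.72 (standard error 0.546, 95% interval -4.04 to -1.39, adjusted p = 0.00757 in edgeR), which is 6.57-fold lower. Leaving out GSI replicate 1 took the log2 fold change of Jun to -1.79. Such a fit leaves 1 library in its group, which is assumed to vary like the other group, so its p-value does not reflect the spread between the GSI libraries and is not given.

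Junb, a weaker activator that can oppose Jun in the control of proliferation, had 64.1 and 37.1 CPM in the GSI libraries against 11.5 and 12.6 CPM in the washout libraries. The washout libraries were close to each other, and the lower GSI library lay above the higher of them by 1.56 on the log2 scale. Junb was 4.26-fold lower, a log2 fold change of -2.09 (standard error 0.263, 95% interval -2.73 to -1.45, adjusted p = 0.00136 from edgeR).

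Jund, the member that many resting cells express steadily, had 233.7 and 207.5 CPM in the GSI libraries against 61.8 and 69.0 CPM in the washout libraries. Its GSI libraries agreed best among the 7, at 1.13-fold, and its interval was the narrowest. Jund had a log2 fold change of -1.76 (standard error 0.113, 95% interval -2.03 to -1.48, adjusted p = 0.000315 from edgeR), or 3.38-fold lower. Leaving out any single library left it between -1.83 and -1.67.

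The Fos family differed more among its members. Fos, its best known immediate early gene, had 433 and 52 counts in the GSI libraries against 24 and 5 in the washout libraries, which correspond to 13.5, 3.56, 0.705 and 0.372 CPM. Both washout libraries were far below both GSI libraries, with at least 2.34 on the log2 scale between any pair, but the GSI libraries were themselves 3.80-fold apart. Fos was the member that fell most, by 14.8-fold, at a log2 fold change of -3.89 (standard error 0.724, 95% interval -5.64 to -2.13, adjusted p = 0.00568 from edgeR). Without GSI replicate 1 the log2 fold change of Fos was -2.61. Across all genes tested, Fos ranked 31 from the most negative value, which places it in the lowest 0.253%.

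Fosl2 encodes Fra-2, which like Fosl1 lacks a strong transactivation domain. Fosl2 had 8.25 and 3.98 CPM in the GSI libraries against 2.50 and 1.49 CPM in the washout libraries, without overlap. This is 3.0-fold lower, at a log2 fold change of -1.59 (standard error 0.427, 95% interval -2.62 to -0.55, adjusted p = 0.0218 from edgeR). This call rests on GSI replicate 1, since without that library the log2 fold change of Fosl2 was -0.95, short of the threshold.

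Fosl1, which encodes Fra-1, was the exception among the tested members. It had 2.72 and 2.33 CPM in the GSI libraries against 2.17 and 1.71 CPM in the washout libraries, so that the groups were apart by little. The log2 fold change of Fosl1 was -0.36 (standard error 0.292, adjusted p = 0.335 from edgeR), and its 95% interval, from -1.07 to 0.34, does not overlap those of Fos, Jun, Batf, Junb and Jund. The differences between members were not tested. In the mm9 annotation 1162 of the 1707 exonic bases of Fosl1 also belong to Ccdc85b on the opposite strand. Ccdc85b had 1089 and 445 counts in the GSI libraries against 1086 and 398 in the washout libraries, a log2 fold change of -0.07, against 87 and 34 and then 74 and 23 counts of Fosl1. How the counting treated strand and overlaps is not given in the sources used here, so the level of Fosl1 is uncertain.

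Fosb had 125 and 4 counts in the GSI libraries against 12 and 1 in the washout libraries, and it did not pass the filter. Nearly all of its reads came from GSI replicate 1, and washout replicate 1 lay above GSI replicate 2, so the groups overlapped. DESeq2, which did not filter it out, gave Fosb a log2 fold change of -3.17 (adjusted p = 0.0111).

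**Figure D2:**
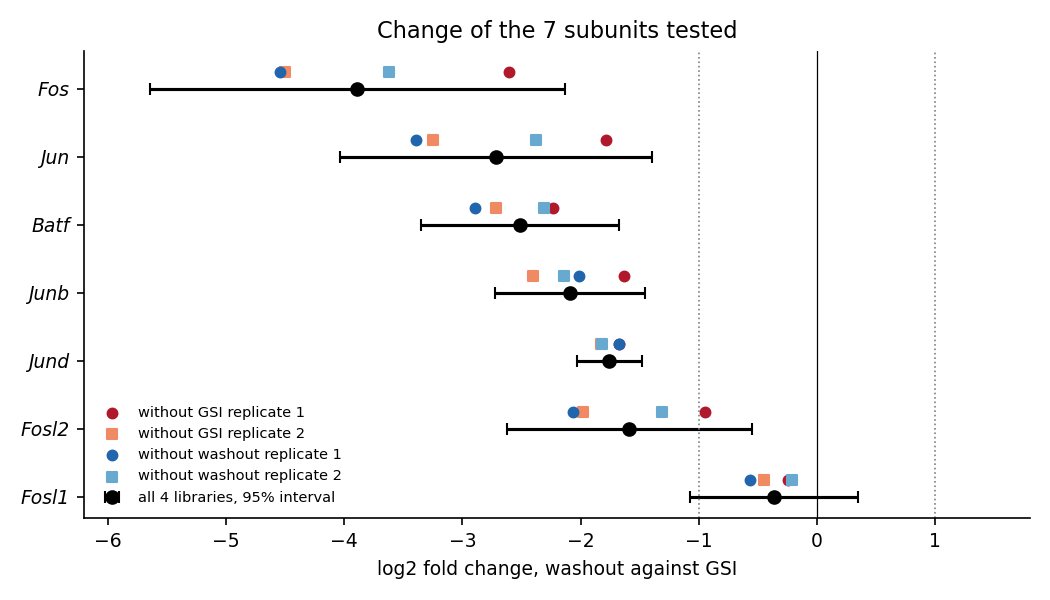
Log2 fold change of washout against GSI for the 7 AP-1 subunits tested, with the edgeR estimate and its 95% interval in black and the estimates without 1 library in color. Without GSI replicate 1, Fos moved from -3.89 to -2.61 and Fosl2 crossed the dotted line at -1, whereas the points of Jund lay within its interval.

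Batf, which in lymphocytes pairs with Jun proteins and cooperates with IRF4, had 5.81 and 4.11 CPM in the GSI libraries against 0.999 and 0.670 CPM in the washout libraries. The lower GSI library was above the higher washout library by 2.04 on the log2 scale. Batf fell 5.71-fold, a log2 fold change of -2.51 (standard error 0.345, 95% interval -3.35 to -1.68, adjusted p = 0.00181 from edgeR). Its value without GSI replicate 1 was -2.24. Batf3, best known from dendritic cells, was listed at 0 in every library. In all, 7342 symbols of the table were at 0 throughout, among them Hmgcs1, a cholesterol synthesis gene of growing cells, so that the level of Batf3 is unknown. Atf3, a stress-induced bZIP gene, had 1 and 3 counts in the GSI libraries against 0 and 0 in the washout libraries, all at or under the limit of 3 counts, and no difference was detectable at this depth.

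**Figure D3:**
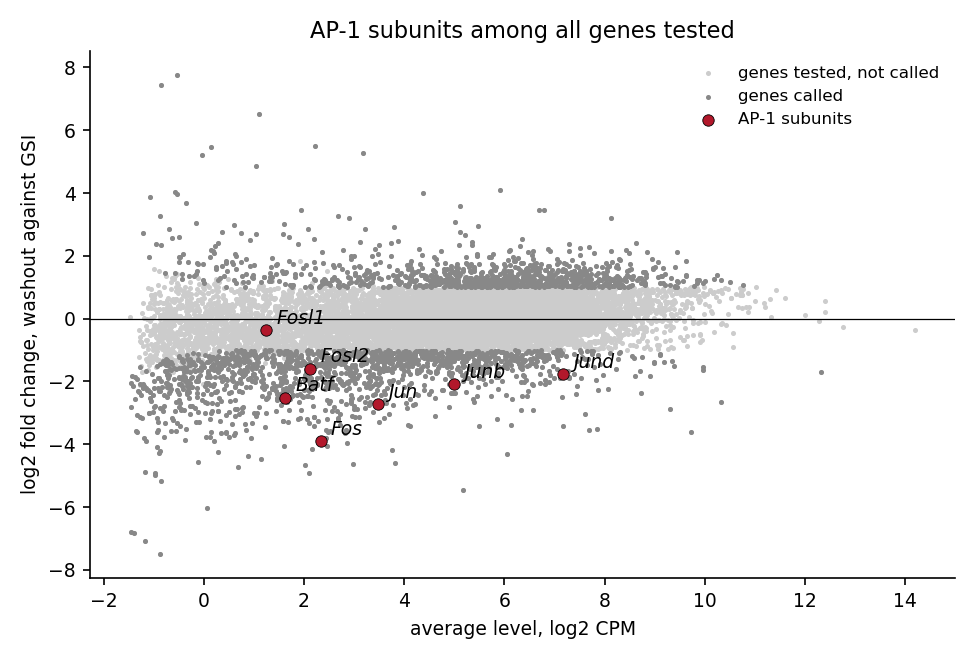
Log2 fold change of washout against GSI plotted against the average level in log2 CPM for the 12266 genes tested, with called genes in dark grey and the AP-1 subunits in red. Jund, at an average of 7.16 log2 CPM, and Fos, at 2.33, lie well below 0 at very different levels, and Fosl1 lies among the genes not called.

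Replicates differed for some members in both groups. In GSI, replicate 1 was at least 2-fold above replicate 2 in 187 genes, or 1.52% of those tested, and Fos, Jun and Fosl2 were among them. Junb, at 1.72-fold, and Batf, at 1.41-fold, shifted the same way, whereas Fosl1 was at 1.17-fold and Jund at 1.13-fold. Upon washout, replicate 1 was at least 2-fold above replicate 2 in 2.50% of the genes tested, with Jun at 2.01-fold, Fos at 1.90-fold, Fosl2 at 1.68-fold and Batf at 1.49-fold. Log2 CPM correlated at 0.988 between the GSI libraries across genes, which are not independent replicates. Fos, Jun and Fosl2 also had the widest intervals of the 7.

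Levels of different genes were compared per kilobase of exon. In GSI, Jund was the most abundant AP-1 transcript at a mean of 76.7 CPM per kilobase, followed by Junb at 28.0, and these were separate from each other and from the rest. Jun, Batf and Fos came next with means of 5.79, 5.20 and 3.63 CPM per kilobase, and their ranges overlapped. Fosl1 at 1.48, Fosl2 at 1.04 and Fosb at 0.557 CPM per kilobase followed, each overlapping its neighbor in that order. Upon washout Jund, at 22.7 CPM per kilobase, and Junb, at 6.66, remained at the top. Next stood Fosl1 at 1.14, Batf at 0.874 and Jun at 0.842 CPM per kilobase, whose ranges overlapped, and then Fosl2 at 0.340 and Fos at 0.229, which overlapped as well. Fosb was lowest of those with reads in washout, at 0.0569 CPM per kilobase. The place of Fosl1 in both orders is uncertain, since most of its exonic bases overlap Ccdc85b.

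Summed over the members, AP-1 transcripts came to 141.1 and 103.7 CPM per kilobase in GSI and to 32.1 and 33.6 upon washout. Most of this sum was Jund and Junb. Within the Jun family the share of Jund was 64.9 and 75.3% in GSI and 74.1 and 76.1% upon washout, and these ranges overlapped. The make-up of the Fos family differed more. Fos held 58.7 and 41.7% of the Fos family transcripts in GSI but 14.3 and 11.0% upon washout, whereas Fosl1 went from 16.3 and 37.6% to 60.8 and 69.9%, while its CPM was no higher in either washout library than in the GSI libraries. Jun family transcripts exceeded Fos family transcripts by 12.8-fold and 26.3-fold in GSI and by 13.8-fold and 21.9-fold upon washout, and these ratios overlapped. The level of Fosl1 is uncertain because of its overlap with Ccdc85b, and so are the Fos family shares and these ratios. No test was run on these shares.

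**Figure D4:**
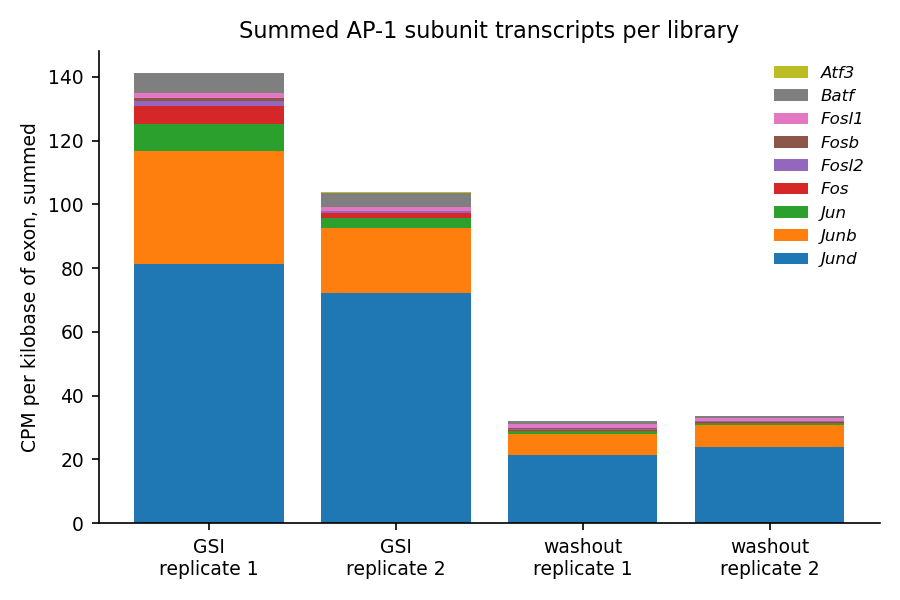
Stacked bars of AP-1 subunit transcripts in each library, in CPM per kilobase of exon. The bars reach 141.1 and 103.7 in GSI and 32.1 and 33.6 upon washout, and the blue part for Jund is the largest in every library.

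The genes of the family are spread over the genome, and mm9 positions are given here. The Jun genes consist of a single exon each: Jun on chromosome 4 from 94715725 to 94718913, Junb on chromosome 8 from 87500811 to 87502617 and Jund on the same chromosome from 73221638 to 73224515. Jun and Jund overlap annotated genes on the opposite strand, BC042782 and Gm11175, neither of which is in the count table. Fosb is on chromosome 7 from 19888070 to 19895394, Fosl1 on chromosome 19 from 5447703 to 5455945 and Fosl2 on chromosome 5 from 32438845 to 32460204. Batf3 and Atf3 lie 61.4 kb apart on chromosome 1.

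Fos (chromosome 12, 86814840 to 86818223) and Batf (87027619 to 87050037) are neighbors, 209.4 kb apart. A position was at hand for 20641 of the 24391 symbols of the table. Among these the one gene between Fos and Batf is Jdp2, which encodes a bZIP repressor that dimerizes with Jun proteins. Jdp2 had 25.3 and 20.2 CPM in the GSI libraries against 6.99 and 8.56 CPM in the washout libraries, a log2 fold change of -1.57 (adjusted p = 0.00111 from edgeR). Of the 9 tested genes with a position in this interval and the 200 kb on either side, Fos, Jdp2 and Batf were the 3 called lower. Over all tested genes 11.7% were called lower. Fos and Batf set the ends of the interval and were already called lower, so only Jdp2 adds to them. The next gene but one after Batf among those with a position, 0610007P14Rik, had a log2 fold change of 0.996, just under the threshold, in the other direction. The interval was chosen after these values were seen.

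Other bZIP proteins share or compete for AP-1 partners and sites. Of 12 tested, 3 were called lower and 0 higher by edgeR, against 11.7% lower and 7.74% higher of all tested genes. At an unadjusted p under 0.05, 6 genes were below 0 and 1 above 0, and DESeq2 called 0 higher. The unadjusted counts have no fold limit, so these shares are not their background. By the adjusted p alone, 5 of the 12 were lower and 0 higher, against 3120 lower and 3315 higher of all 12266 tested genes. The median log2 fold change of the 12 was -0.27. Maf, a large Maf protein of T helper and other cells, had 124.1 and 84.3 CPM in the GSI libraries against 14.4 and 7.52 CPM in the washout libraries, a log2 fold change of -3.19. Jdp2 was at -1.57. Mafk, a small Maf protein without a transactivation domain, was the highest at 0.24 and was not called.

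Genes upstream of AP-1 include the Jun kinases, the ERKs and the serum response factors. Among 14 tested, 1 was called lower, a share near the 11.7% of all tested genes, and 0 higher by edgeR. DESeq2 called 0 higher. At an unadjusted p under 0.05, without a fold limit, 7 were below 0 and 2 above 0, and the 11.7% is not the background of these counts. By the adjusted p alone, 4 of the 14 were lower and 2 higher, against 3120 lower and 3315 higher of all 12266 tested genes. The median log2 fold change of the 14 was -0.21. The called gene was Elk3, a ternary complex factor that binds beside the serum response factor, at -1.07. Srf itself had the highest value, 0.34, and was not called. Kinase activity was not measured.

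Most other immediate early genes were lower upon washout, as Fos and Jun were. Of 19 listed, 13 were tested. Of these, 9 were called lower by edgeR, against 11.7% of all tested genes, and 0 higher, with none above 0. Both washout libraries lay below both GSI libraries for 13 of 13, against 39.1% of all tested genes. DESeq2 called 7 lower and 0 higher, and glmTreat, which tests against a log2 fold change of 1, called 4 lower. The median was -1.39, and values ran from -3.21 for Egr1, a zinc finger factor induced together with Fos, to -0.62 for Arc, which was not called. Egr1 had 8.03 and 6.51 CPM in the GSI libraries against 1.03 and 0.372 CPM in the washout libraries, so that, unlike for Fos, its GSI libraries were close. Dusp1, at 22.6 and 8.91 CPM, and Zfp36, at 29.1 and 11.1 CPM, were higher in GSI replicate 1 than in replicate 2, as Fos was. Ier3 was at -2.39 and Btg2, an antiproliferative gene, at -2.37.

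Transcription factors that bind together with AP-1 in lymphocytes were called lower in 2 of 8 cases and higher in 0 by edgeR. Over all tested genes 11.7% were called lower and 7.74% higher. At an unadjusted p under 0.05, 6 of the 8 were below 0 and 0 above 0, and DESeq2 called 0 higher. The unadjusted counts have no fold limit, so these shares are not their background. By the adjusted p alone, 6 of the 8 were lower and 0 higher, against 3120 lower and 3315 higher of all 12266 tested genes. The median of the 8 was -0.51. Runx3 was at -1.62 and Nfatc2, an AP-1 partner at cytokine genes, at -1.24. Irf4, the partner of Batf, had 1.81 and 2.40 CPM in the GSI libraries against 2.29 and 2.31 CPM in the washout libraries, which overlapped, and a log2 fold change of 0.15. Without washout replicate 1, 1 of the 8 was called.

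Genes whose products turn over AP-1 protein or mRNA had a median of 0.25, with 1 of 8 called lower and 1 higher. These shares are near the 11.7% of all tested genes called lower and the 7.74% called higher. Zfp36l1, which binds AU-rich elements and promotes mRNA decay, was at -1.35. Hnrnpd, another protein that binds AU-rich elements, was at 1.03, close to the threshold. It was not called under total-count scaling, with at least 10 counts in every library, with glmTreat or without washout replicate 1.

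Of 16 textbook AP-1 target genes 9 were tested, and 5 of these were called lower and 1 higher, with a median of -1.26. Over all tested genes 11.7% were called lower and 7.74% higher. With glmTreat, 2 of the targets were called lower and 0 higher. The largest fall was that of Mmp9, a matrix metalloproteinase, which had 7.50 and 2.74 CPM in the GSI libraries against 0.323 and 0.298 CPM in the washout libraries, a log2 fold change of -4.04. Cd69, an early activation antigen of lymphocytes, was at -1.98 and Vim, which encodes vimentin, at -1.95. Ctla4, an inhibitory receptor of T cells, was called higher at 1.71, a call that was lost without GSI replicate 1.

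**Figure D5:**
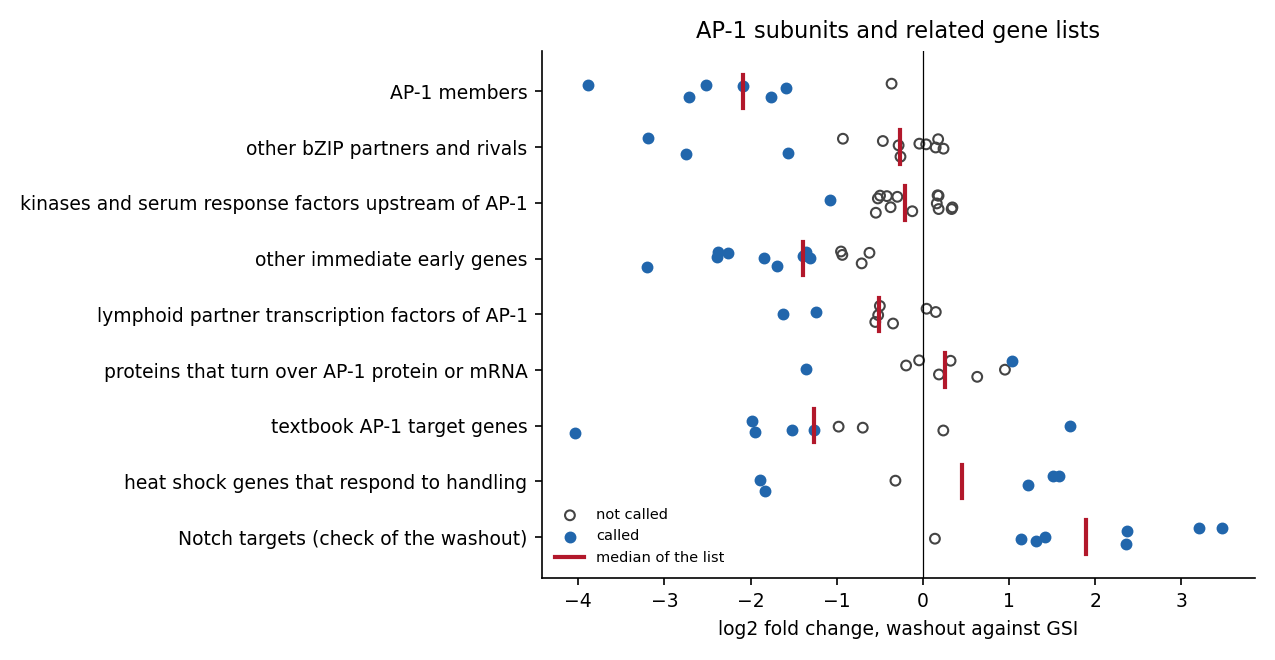
Log2 fold change of washout against GSI for the tested genes of 9 lists, with filled points for called genes, open points for genes not called and a red bar at the median of each list. The medians of the AP-1 subunits (-2.09), other immediate early genes (-1.39) and textbook AP-1 targets (-1.26) lie to the left of 0. The median of the Notch targets (1.89) lies to the right. Of the 9 textbook targets tested, 2 had values above 0.

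Heat shock genes, which respond to the handling of cells, were called in both directions. Of 6 tested, Hspa1a at -1.89 and Hspa1b at -1.83 were called lower, while 3 were called higher with Hsp90aa1 at the top at 1.58. The median was 0.45, and over all tested genes 11.7% were called lower and 7.74% higher. Hspa1a and Hspa1b are near-identical copies, so their counts are uncertain. Some genes known from other blood cells were lower as well. Of 6 mast cell markers, Cpa3 (-4.30) and Kit (-1.53) were called lower and Fcer1a, Ms4a2, Mcpt8 and Tpsb2 were listed at 0, and the sum of the list fell from 274.5 and 166.7 CPM to 45.7 and 30.5 CPM. Among 6 myeloid markers Itgam (-3.08) was the one tested and Lyz2 and Elane were listed at 0, with sums of 49.2 and 38.2 CPM in the GSI libraries against 5.49 and 4.91 CPM in the washout libraries. Kit is also expressed by early T-cell progenitors. The erythroid, fibroblast and endothelial markers had 1 gene each that was called lower, Klf1, Col1a1 and Pecam1. Col1a1 had only 29 and 18 counts in the GSI libraries against 4 and 0 in the washout libraries. Col1a2, at -0.53, was not called, and the other markers of these lists were not tested. The part of these genes in the AP-1 result was not tested.

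The genes whose pattern over the 4 libraries was most like that of a member were found by the Euclidean distance between log2 CPM values centred on their mean, among genes of similar or higher level. For Fos, out of 10565 genes, these were Tcn2 at a distance of 0.482, Mmp9 at 0.646, Tle6 at 0.668, Nptxr at 0.730 and Sema4a at 0.749. Tcn2, which encodes a carrier of vitamin B12, had 17.5 and 7.27 CPM in the GSI libraries against 1.29 and 0.670 CPM in the washout libraries, with the same order of the libraries as Fos. For Jun they were A430035B10Rik, Sytl2, H2-Ab1, Speg and Fam129b, at distances from 0.476 to 0.567 among 9747 genes. For Jund they were Laptm5, Sox13, Utrn, Bzrap1 and Grina, at 0.165 to 0.199 among 3602 genes. Laptm5, a lysosomal protein of blood cells, had 655.5 and 610.2 CPM in the GSI libraries against 202.2 and 201.0 CPM in the washout libraries. The likeness is over 4 libraries and is a description.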

How the data were processed

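Total RNA of 4 libraries was sequenced after depletion of ribosomal RNA with a stranded kit. Reads were trimmed by the authors (trimGalore) and mapped to mm9 by HISAT2 2.2.1 with 1 reported alignment each, and summarizeOverlaps assigned them to iGenomes gene models. What the authors deposited are raw counts, neither normalized nor pooled. Groups follow the sample labels. Counts were tested with edgeR 4.0.16 in R 4.3.3 (filterByExpr, TMM factors, quasi-likelihood test without covariates) over 12266 genes, with Benjamini-Hochberg adjustment and the study's thresholds. Intervals use the t distribution at 95%. The scripts were tested on simulated data. Exon lengths and positions come from GENCODE vM1 on mm9, which matched 20641 symbols, and promoters from RefSeq. All members were named. Of each other list the lowest and highest genes and up to 2 called genes next to them were named, together with the 5 closest patterns of Fos, Jun and Jund and genes overlapping a member, except 1 gene that is not reported here. Dusp1 and Zfp36 were named in addition, for the spread between their GSI libraries. The members and lists were chosen with earlier results of these data known. DESeq2 1.42.0 and other settings were tried as alternatives. A correction for GC content and length was added after seeing the data.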

Additional observations from a re-analysis of the deposited data

How the results depend on the processing

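Across 14 alternatives between 4 and 7 AP-1 members were called lower and 0 higher, and no member changed direction in any of them. The count of 4 came from requiring at least 10 counts in every library, which removes Fos and Batf from the test, and from glmTreat against a log2 fold change of 1, in which Jun had an adjusted p of 0.069 and Fosl2 of 0.324. Leaving out 1 library at a time, with the lone library of that group assumed to vary like the other group, gave 5 to 7 members. Fosl2 was not called without GSI replicate 1, at -0.95. Among all genes, the adjusted p alone called 3120 lower and 3315 higher, and glmTreat called 501 and 308. Over the 8 lists other than the members, 35 of 78 genes were called, 53 with the adjusted p alone and 15 with glmTreat. In the main test 11.7% of all tested genes were called lower and 7.74% higher. With total-count scaling 1963 genes were lower and 586 higher, which takes the share of higher calls from 39.8 to 23.0% and the median log2 fold change of all tested genes to -0.21. The members moved by about that shift, Jun to -2.92 and Jund to -1.96. After correction for GC content and length, which covers 86.0% of the genes tested, Jund was at -1.38 and Fosl1 at -0.11, with the same 6 members called. With the replicate number as a block, 6 members, 1576 genes lower and 981 higher were called. The standard error fell from 0.724 to 0.280 for Fos, from 0.546 to 0.178 for Jun and from 0.113 to 0.0934 for Jund. Libraries with the same number deviated together (correlation 0.469). With 2 pairs and no shared batch in the labels, whether the numbers pair them is unknown. Depth limits Atf3, while low counts and the spread between its GSI libraries, at 125 and 4 counts, limit Fosb. Counting limits cover counting error only.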
